A study of Danio rerio with 8 samples.

Results

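Isolated transcription starts of the zebrafish (Danio rerio) embryo were examined: CAGE regions with no other region within 50000 bases on either strand. Cap analysis gene expression (CAGE) captures capped RNAs and sequences their first bases, so that tags pile up where transcription begins. The tag clusters of 2 deposited lists were merged where they overlapped on the same strand, and the distance between midpoints was taken to the nearest other merged region on chromosomes 1 to 25. A region covered by both lists was called isolated when that distance exceeded 50000 bases. There were 1428 such starts, 6.14% of the 23266 regions on these chromosomes covered by both lists. The 42130 merged regions of all sequences include single-list regions, which counted as neighbours here.

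The RNA came from whole embryos in 4 groups of 2 libraries each. Embryos of the jam3b-sa37 genotype (sa37 below) were collected at 16 and at 12 hours post-fertilization (hpf), and wild type embryos (WT) at 16 and at 12 hpf. jam3b encodes a junctional adhesion molecule known in zebrafish for its part in the fusion of fast muscle precursors. Zygosity, the number of embryos per library and whether libraries came from separate clutches are not given in the sources used here, so p-values measure only the spread between these libraries, which may be technical. Every tissue of the embryo contributes to a value, and no region was assigned to a tissue. The regions carry no gene names, and jam3b itself was not analysed here.

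Transcription in vertebrate embryos starts at promoters that range from a sharp, dominant base to a broad band of starts. Much of a vertebrate genome is gene-poor, and long gene-poor stretches often flank genes of developmental regulators, whose enhancers lie in the surrounding sequence. Distant starts can be promoters of such genes, of long noncoding RNAs, or starts at enhancers and repeats. None of the regions is placed in one of these classes here. Between 12 and 16 hpf the zebrafish embryo forms somites, and muscle and nervous tissue begin to differentiate.

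Depth, taken as the tags in the distinct listed clusters, was 10662458 to 15830713 in replicate 1 and 16938015 to 23300915 in replicate 2. The values of these clusters added up to 905534 to 918493 RPM per library in list 1 and 965072 to 969860 RPM in list 2. Values are RPM (tags per 1000000 tags), and since a tag marks the start of an RNA they are not divided by length. Replicate 1 and replicate 2 each have their own cluster list, so the replicate number, the list and its scaling cannot be told apart. The difference between replicates correlated across regions with r of 0.68 to 0.83 between groups, a description over regions that share their libraries. Each comparison was therefore fitted with limma without and with the replicate number as a block. List 1 shows no value between 0 and 0.51 to 0.55 RPM, depending on the library, and list 2 shows values down to 1 tag.

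The isolated starts lay at a median of 77640.5 bases from the nearest other region. Of the 1428, 976 were at most 100000 bases away, 452 were farther than that, 86 were more than 200000 bases away and 16 more than 400000. They were spread over both strands, with 740 on the plus and 688 on the minus strand. The nearest region was itself covered by both lists for 859 of them, by list 1 alone for 195 and by list 2 alone for 374. It lay on the same strand for 819 and was another isolated start for 301. Chromosome 9 had the highest share, with 77 of 778 both-list regions (9.90%), and chromosome 14 the lowest, with 39 of 926 (4.21%).

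Just inside the threshold, a region at chr19:1426531-1426546 on the minus strand lay 50006.5 bases from its neighbour and had a mean of 0.806 RPM over the 8 libraries, and a region at chr2:27835385-27835460 on the plus strand lay 50136.5 bases away with a mean of 55.7 RPM. Just outside it were chr21:23074254-23074278 on the minus strand at 49987.5 bases, with a mean of 1.39 RPM, and chr21:19381966-19382306 on the plus strand at 49956.5 bases, with a mean of 0.833 RPM. Coordinates are those of the files, in danRer10 per the submitters' processing notes. Whether the first base is counted from 0 or from 1 is not given in the sources used here.

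Isolated starts had lower levels than the other regions, a description without a test. Their mean level over the 8 libraries had a median of 3.66 RPM, against 5.23 RPM for the 21838 other both-list regions of these chromosomes. The gap widened at the top: 1.54% of isolated starts reached 50 RPM, against 10.7% of the others, and the strongest reached 159 RPM, against 16827 RPM. Of the isolated starts 62.0% were above 0 in all 8 libraries, against 72.9% of the others. In length they were close to the rest, with a median of 75 bases against 86. Isolated starts of at most 10 bases made up 10.3%, against 8.12% of the other regions.

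**Figure D1:**
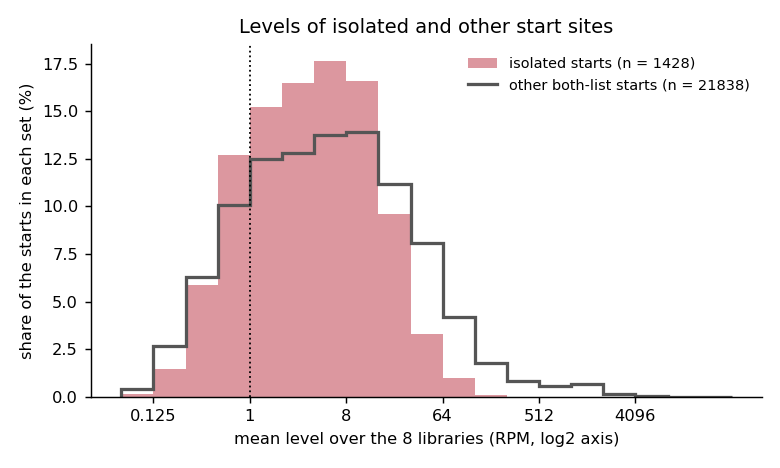
Share of the regions in each set (y axis, percent) by their mean level over the 8 libraries (x axis, RPM on a log2 axis); the filled histogram shows the 1428 isolated starts, the line the 21838 other both-list regions, and the dotted line the 1 RPM needed to enter the tests. The isolated starts end at 159 RPM, while the other regions reach 16827 RPM.

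Strong isolated starts did occur. The strongest lay at chr1:2759938-2760238 on the plus strand, 462124 bases from the nearest region to its left and 914747 bases from the next one to its right. It had 154 and 163 RPM in sa37 at 16 hpf, 160 and 114 RPM in sa37 at 12 hpf, 157 and 193 RPM in WT at 16 hpf, and 165 and 170 RPM in WT at 12 hpf. The stages overlapped, and its stage difference was 0.14 on the log2(RPM + 1) scale (limma, adjusted p = 0.999 without and 0.51 with the block). The next in level was chr1:38099940-38100161 on the plus strand, with a mean of 118 RPM, highest in the replicate 1 libraries of each group. Also among the strongest were chr8:53391014-53391265 on the plus strand (mean 92.4 RPM), chr24:34794465-34794754 on the minus strand (87.9 RPM) and chr20:55333805-55333879 on the minus strand (82.0 RPM). The last of the 6 was chr5:29489557-29489739 on the plus strand, with a mean of 74.2 RPM.

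Of these 6, both that changed between stages did so only with the block. The start on chromosome 5 had 96.4 and 105 RPM in sa37 and 85.5 and 74.5 RPM in WT at 16 hpf, against 56.3 and 73.5 RPM in sa37 and 48.9 and 53.2 RPM in WT at 12 hpf. Every library at 16 hpf stood above every library at 12 hpf, and the difference was 0.64 ± 0.12 (log2, SE with the block; limma, adjusted p = 0.311 without and 0.0124 with the block). The start on chromosome 8 had 85.6 and 139 RPM in sa37 and 72.3 and 139 RPM in WT at 16 hpf, against 50.7 and 106 RPM in sa37 and 46.8 and 99.3 RPM in WT at 12 hpf. The stages overlapped across replicates and separated within each replicate number (difference 0.56, limma, adjusted p = 0.826 without and 0.0137 with the block).

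The 4 most distant starts were mostly faint. The 56 tested starts beyond 200 kb had a median of 5.70 RPM, close to the 5.75 RPM of those tested at 50 to 100 kb. These medians leave out starts under a mean of 1 RPM. Beyond 200 kb 56 of 86 starts were tested, against 798 of 976 at 50 to 100 kb. The farthest, chr11:9508546-9508591 on the minus strand, lay 829212 bases from its neighbour and had a mean of 0.512 RPM. The next were chr14:39180612-39180653 on the plus strand, at 574144 bases with a mean of 0.759 RPM, and chr9:39693623-39693634 on the plus strand, at 498072.5 bases with a mean of 0.386 RPM. All 3 were under the 1 RPM needed for a test. The exception among the 4 farthest was chr1:12584153-12584325 on the minus strand, 507598 bases away, which ranked behind the first 2 in distance. It had 15.4 and 16.4 RPM in sa37 and 12.8 and 16.8 RPM in WT at 16 hpf, against 19.0 and 24.5 RPM in sa37 and 21.7 and 21.5 RPM in WT at 12 hpf. No 16 hpf library reached the lowest 12 hpf library, and the start fell by 0.47 on the log2(RPM + 1) scale in the blocked fit only (limma, adjusted p = 0.534 without and 0.026 with the block).

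Together the isolated starts took a small share of each library. The share was 1.14% and 1.61% of the RPM in sa37 at 16 hpf (95% Wilson intervals 1.13 to 1.14% and 1.60 to 1.62%), and 0.926% and 1.38% in sa37 at 12 hpf (0.921 to 0.932% and 1.37 to 1.38%). In WT it was 1.02% and 1.49% at 16 hpf (1.01 to 1.02% and 1.48 to 1.49%), and 0.906% and 1.32% at 12 hpf (0.900 to 0.911% and 1.32 to 1.33%). Without molecular identifiers, these intervals cover only the error of counting. Replicate 2 was above replicate 1 in every group, by more than any difference between groups of the same replicate number. Within a replicate number the share was higher at 16 than at 12 hpf in 4 of 4 pairs, by 0.181 ± 0.055 percentage points (SD, n = 4 pairs), and higher in sa37 than in WT in 4 of 4 pairs, by 0.0792 ± 0.051 points (SD, n = 4 pairs). No test was made of this summed value. In whole embryos a larger share cannot be told apart from more cells of a type that uses these starts.

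**Figure D2:**
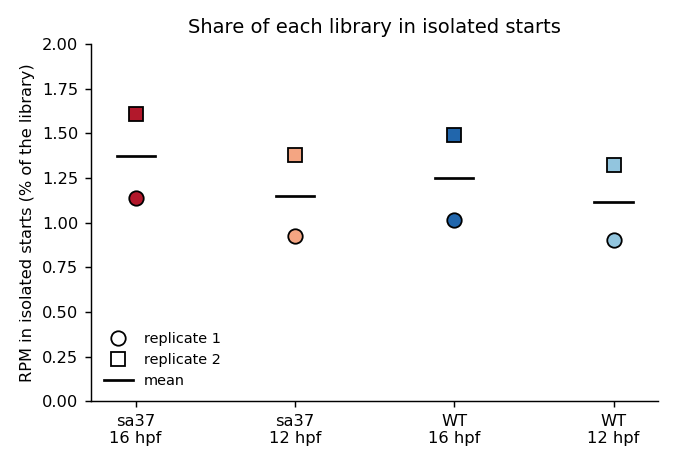
Share of each library's RPM in isolated starts (y axis, percent) for the 4 groups of 2 libraries; circles are replicate 1, squares replicate 2 and bars the group means. Squares lie above circles in every group, and within each shape the 16 hpf point lies above the 12 hpf point of its genotype.

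The share differed between replicates, which have different lists, while both libraries of each pair within a replicate number have the same list. In replicate 1, 180 of the 1428 isolated starts were at 0 in sa37 at 16 hpf and 295 in sa37 at 12 hpf, and 255 in WT at 16 hpf and 374 in WT at 12 hpf. In replicate 2 there were 39 in sa37 at 16 hpf and 40 in sa37 at 12 hpf, and 43 in WT at 16 hpf and 34 in WT at 12 hpf. Depth was higher at 16 than at 12 hpf in replicate 1 and in sa37 of replicate 2, and close to equal in WT of replicate 2, with 22956035 and 22593011 tags. In that near-equal pair the median difference between stages over the tested isolated starts was 0.169 on the log2(RPM + 1) scale, against 0.0562 over all tested regions. At 12 hpf sa37 had fewer tags than WT in both replicates (10662458 against 11713380, and 16938015 against 22593011) but a higher share. At 16 hpf sa37 had more tags than WT (15830713 against 14804217, and 23300915 against 22956035) and a higher share. The part of the depth in these differences was not tested, nor that of the list between replicates.

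Of the isolated starts, 1140 had a mean of at least 1 RPM and were tested, among 19000 both-list regions in all, and the other 288 were not. The first comparison asked which starts changed between 12 and 16 hpf, averaged over genotypes. More isolated starts rose than fell. Without the block, limma called 38 of the 1140 (3.33%), 34 higher and 4 lower at 16 hpf, against 1.88% called among all 19000 (1.51% higher, 0.374% lower). With the block it called 461 (40.4%), 379 higher and 82 lower, against 27.9% of all (20.2% higher, 7.73% lower). All 38 were among the 461. On recovered tags edgeR with the block called 289, of which 262 were among the 461, against 21.3% of all regions.

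The median stage difference was 0.23 over the 1140 isolated starts and 0.08 over all 19000 regions. The difference was positive in 4 of 4 pairs of libraries for 516 isolated starts (45.3%, against 33.3% of all tested regions) and negative in 4 of 4 for 146 (12.8%, against 16.3%). The balance of directions moved with the scaling. After quantile normalization the median stage difference was 0.08 for the isolated starts and -0.05 for all regions, so both medians shifted down and the isolated starts stayed above. With the block it called 396 isolated starts, 266 higher and 130 lower (67.2% of the calls higher), against 27.1% of all regions (14.1% higher, 13.0% lower). The blocked calls on RPM as deposited were 82.2% higher. EdgeR with the block gave 200 higher and 89 lower (69.2% higher), against 11.3% higher and 9.96% lower among all regions. The counts that follow, with a library left out, cover isolated starts only. Those over all regions are not given here. Leaving out any single library left 1 to 6 calls without the block, and 265 to 405 with it, the lowest without replicate 1 of sa37 at 16 hpf.

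The rising starts with the smallest p included a neighbouring pair on chromosome 13, 145405 bases apart with no other region between them. At chr13:1596003-1596118 on the plus strand, levels were 19.4 and 37.3 RPM in sa37 and 14.2 and 26 RPM in WT at 16 hpf, against 1.79 and 4.81 RPM in sa37 and 1.57 and 2.96 RPM in WT at 12 hpf. At chr13:1741435-1741496 on the same strand, they were 3.70 and 6.10 RPM in sa37 and 4.71 and 7.61 RPM in WT at 16 hpf, against 0 and 0.458 RPM in sa37 and 0 and 0.6 RPM in WT at 12 hpf. The stages did not overlap at either start. The first rose by 2.73 ± 0.39 (log2, SE without the block; limma, adjusted p = 0.025 without and 9.63e-05 with the block) and the second by 2.36 ± 0.31 (limma, adjusted p = 0.0191 without and 9.28e-05 with the block).

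Several of the rising starts were at or near 0 at 12 hpf. They met the mean of 1 RPM through the 16 hpf libraries. The sharpest of them, an 8-base region at chr12:3098745-3098753 on the minus strand, had 18 and 14 RPM in sa37 and 6.42 and 11.7 RPM in WT at 16 hpf, against 0 and 0.172 RPM in sa37 and 0 and 0.086 RPM in WT at 12 hpf. It had the largest rise of the 8 named, 3.59 ± 0.26 (log2, SE without the block; limma, adjusted p = 0.00666 without and 0.000164 with the block), and was called in the fit without the block whichever library was left out. At chr7:44106326-44106403 on the plus strand, levels were 5.78 and 6.23 RPM in sa37 and 5.2 and 8.70 RPM in WT at 16 hpf, against 0 and 0.458 RPM in sa37 and 0 and 0.129 RPM in WT at 12 hpf. This start rose by 2.70 ± 0.26 (limma, adjusted p = 0.0104 without and 0.00015 with the block). At chr4:6024057-6024082 on the plus strand, levels were 5.09 and 5.02 RPM in sa37 and 2.20 and 2.61 RPM in WT at 16 hpf, against 0 and 0.344 RPM in sa37 and 0 and 0.043 RPM in WT at 12 hpf. It rose by 2.06 ± 0.22 (limma, adjusted p = 0.0124 without and 0.000208 with the block).

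The other 3 rising starts already had tags at 12 hpf in most libraries. At chr5:28025316-28025464 on the minus strand, levels were 8.50 and 15.3 RPM in sa37 and 4.59 and 11.1 RPM in WT at 16 hpf, against 0.510 and 2.23 RPM in sa37 and 0 and 0.686 RPM in WT at 12 hpf. At chr2:20748430-20748478 on the plus strand, they were 13.4 and 17.9 RPM in sa37 and 11.7 and 12.2 RPM in WT at 16 hpf, against 1.71 and 2.40 RPM in sa37 and 1.25 and 2.36 RPM in WT at 12 hpf. Both rose, by 2.58 ± 0.42 and by 2.34 ± 0.25 (limma without the block, adjusted p = 0.0351 and 0.0124). The start at chr22:32553498-32553587 on the minus strand averaged 10.3 RPM at 16 hpf and 2.02 RPM at 12 hpf, with replicate 2 far above replicate 1 in every group, and rose in the blocked fit only (1.92 ± 0.10, limma, adjusted p = 0.151 without and 0.000174 with the block). None of these 8 starts overlapped between the stages, but they were picked for a small p in these same libraries. The share of all tested regions without such overlap is not given here. Of the 7 called without the block, edgeR without the block did not call those at chr13:1741435-1741496 and on chromosome 5, and a pseudocount of 0.1 ended the calls of these and of chr13:1596003-1596118.

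**Figure D3:**
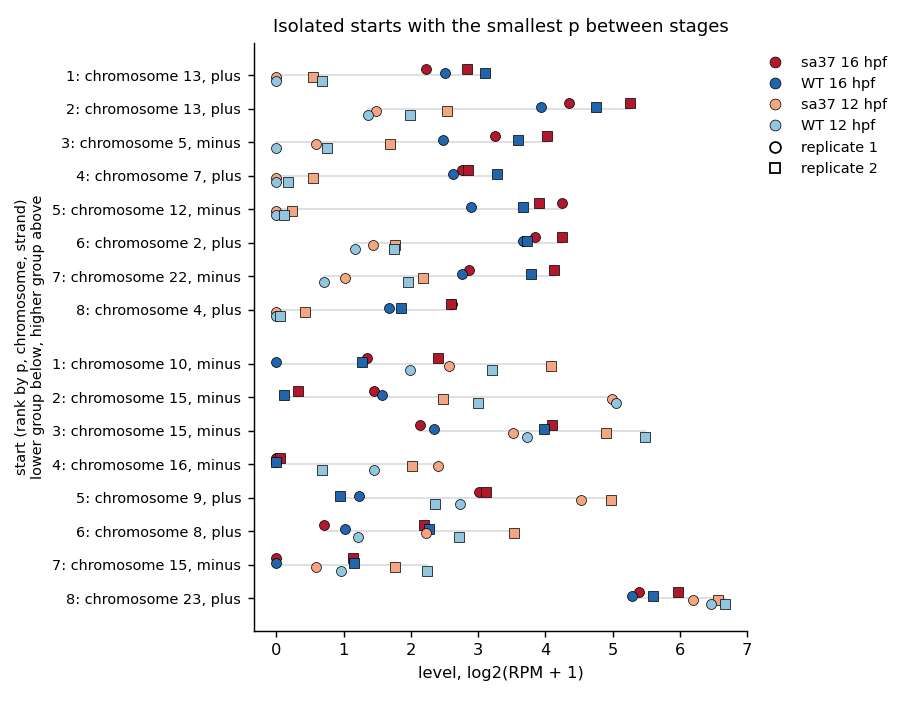
Levels of the 8 rising (upper rows) and 8 falling (lower rows) isolated starts with the smallest p in the blocked limma fit between stages, on log2(RPM + 1) (x axis), with 1 point per library; red and dark blue are 16 hpf, orange and light blue 12 hpf, circles replicate 1 and squares replicate 2. The 16 and 12 hpf points are apart in all 8 upper rows and in 3 of the 8 lower rows. The starts were picked for a small p, and the share of all regions apart in this way is not given here.

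Falling isolated starts were fewer. The deepest fall among the 8 named was at chr15:38027166-38027501 on the minus strand, with 1.73 and 0.249 RPM in sa37 and 1.96 and 0.084 RPM in WT at 16 hpf, against 30.9 and 4.58 RPM in sa37 and 32.2 and 7.03 RPM in WT at 12 hpf. Its stages did not overlap, replicate 1 was above replicate 2 in all 4 groups, and it fell by 3.02 in the blocked fit (SE 0.23, limma, adjusted p = 0.132 without and 0.000437 with the block). At chr16:38051054-38051075 on the minus strand, levels were 0 and 0.042 RPM in sa37 and 0 and 0 RPM in WT at 16 hpf, against 4.27 and 3.04 RPM in sa37 and 1.73 and 0.6 RPM in WT at 12 hpf. This start was near silent at 16 hpf and fell by 1.62 (SE 0.26, limma, adjusted p = 0.0346 without and 0.00104 with the block). It met the mean of 1 RPM through the 12 hpf libraries, so the filter partly sets this fall.

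A strong falling start lay at chr23:6652471-6652696 on the plus strand. It had 41.2 and 61.9 RPM in sa37 and 38.3 and 47.3 RPM in WT at 16 hpf, against 72.4 and 94.0 RPM in sa37 and 87.4 and 101 RPM in WT at 12 hpf. All 16 hpf libraries were below all 12 hpf libraries, a fall by 0.91 (SE 0.11 with the block, limma, adjusted p = 0.177 without and 0.00206 with the block). The start at chr9:16031845-16031871 on the plus strand changed with stage and genotype alike: it had 7.11 and 7.64 RPM in sa37 and 1.35 and 0.925 RPM in WT at 16 hpf, against 22.1 and 30.6 RPM in sa37 and 5.65 and 4.16 RPM in WT at 12 hpf. Within each genotype the stages did not overlap, and it fell by 1.58 (SE 0.24, limma, adjusted p = 0.0287 without and 0.00109 with the block). Its genotype difference was also called in both fits (limma, adjusted p = 0.0187 without and 0.00128 with the block).

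The remaining falling starts with the smallest p were called in the blocked fit only. They lay at chr10:13714685-13714904 (minus strand, fell by 1.70), chr15:26703711-26703887 (minus, fell by 1.27), chr8:6989444-6989533 (plus, fell by 0.87) and chr15:5575690-5575793 (minus, fell by 0.82). Their limma adjusted p was 0.000316 to 0.00202 with the block and 0.241 to 0.754 without it. At all 4 the highest 16 hpf value, in replicate 2, was above the lowest 12 hpf value, in replicate 1. EdgeR with the block did not call the last of them.

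The share of rising starts increased with the distance to the nearest region, on both sides of the 50000 base threshold. Among all tested regions on these chromosomes, the blocked limma fit called higher at 16 hpf 15.0% of those at most 1 kb from a neighbour, 18.4% of those at 1 to 5 kb, 24.2% at 5 to 20 kb and 27.9% at 20 to 50 kb. Among isolated starts the shares were 32.0% at 50 to 100 kb, 35.7% at 100 to 200 kb and 39.3% beyond 200 kb, where only 56 starts were tested. The share of falling starts had no such trend, at 8.49% within 1 kb and 7.14% at 50 to 100 kb, with 12.5% (7 of 56) in the last class. The median difference was 0.03 within 1 kb and 0.22 at 50 to 100 kb.

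The increase was also present in the other blocked fits, at lower levels. After quantile normalization the rising share was 10.6% within 1 kb, 21.9% at 50 to 100 kb and 25.5% at 100 to 200 kb. EdgeR with the block gave 8.49%, 17.2% and 17.1% for the same classes. Without the block limma called 0.999%, 2.76% and 3.5%. Levels fell along the same axis, with a median of 10.4 RPM within 1 kb and 5.75 RPM at 50 to 100 kb.

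**Figure D4:**
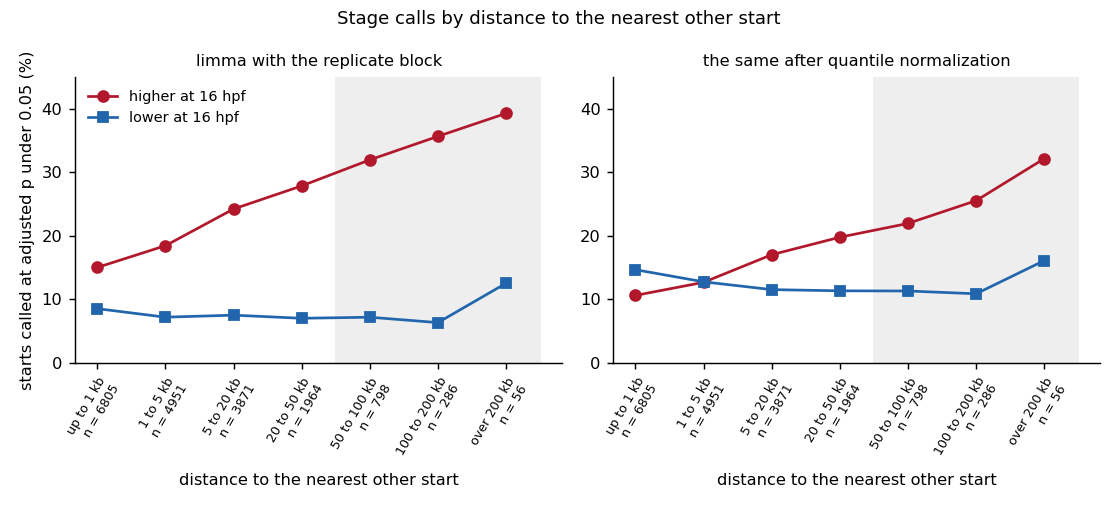
Percent of tested regions called higher (red circles) or lower (blue squares) at 16 than at 12 hpf (y axis) by distance to the nearest other region (x axis, with the number tested), in limma with the replicate block on RPM as deposited (left) and after quantile normalization (right); the shaded classes are the isolated starts. The red line climbs to 39.3% on the left and 32.1% on the right in the most distant class.

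Among regions of like level under 10 RPM, a larger share of isolated starts than of others was called higher, with and without the block. From 10 RPM upward, limma with and without the block differed. At a mean of 1 to 3 RPM, 128 of 352 isolated starts (36.4%) were called higher at 16 hpf in the blocked fit, against 17.7% of the 4368 others. At 3 to 10 RPM the shares were 37.8% (167 of 442) and 22.9%, and at 10 to 30 RPM 25.5% (71 of 278) and 20.1%. At 30 RPM or more they were 19.1% (13 of 68) and 15.8%. Without the block limma called higher 3.41% of isolated starts against 1.44% of others at 1 to 3 RPM. At 3 to 10 RPM it called 4.07% against 1.94%, and at 10 to 30 RPM 1.44% against 1.46%. At 30 RPM or more it called 0 of 68, against 0.637% of the others. With edgeR and the block the isolated starts of 1 to 3 RPM reached 10.8%, against 5.31% of the others, and those of 30 RPM or more 16.2%, against 11% of the others, with 22.1% and 18.3% lower.

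Length divided the isolated starts as well. Of the 65 tested ones of at most 10 bases, 14 were higher and 16 lower at 16 hpf in the blocked fit, with a median difference of -0.16. These are 21.5% higher and 24.6% lower, against 19.4% higher and 12.2% lower of the 851 other regions of that length. Of the 593 of 51 to 150 bases, 210 were higher (35.4%) and 30 lower (5.06%), with a median of 0.27, against 21.6% higher and 6.12% lower of the 8201 others. After quantile normalization with the block the shortest class had 10 higher (15.4%) and 21 lower (32.3%), against 15.0% and 17.9% of the others. With edgeR and the block it had 8 of each (12.3%), against 11.2% higher and 8.58% lower of the others. In these 3 fits rising calls did not outnumber falling ones among the shortest starts, while limma without the block called 4 of the 65 (6.15%), all higher, against 3.41% higher of the others.

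Where both of a pair of neighbouring isolated starts were called, they mostly moved in the same direction. There were 205 distinct pairs in which an isolated start had another isolated start as its nearest region, and both were tested in 125. Both were called between stages in the blocked fit in 25 pairs, in the same direction in 22, of which 21 were pairs of rising starts. The pair on chromosome 13 described above is one of these. Of all 1140 tested isolated starts, 40.4% were called in that fit, and 82.2% of these calls were higher. Whether the pairs go beyond these shares was not tested. The same count over all neighbouring regions is not given here.

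The second comparison asked which isolated starts differed in sa37 from WT embryos, averaged over stages. Few did without the block: limma called 17 of 1140 (1.49%), 10 higher and 7 lower in sa37, against 0.632% of all 19000 regions (0.384% higher, 0.247% lower). With the block it called 118 (10.4%), 83 higher and 35 lower, against 7.36% of all (4.74% higher, 2.63% lower). All 17 were among the 118. The excess in the blocked fit depended on level. At a mean of 1 to 3 RPM, 11.9% of isolated starts were higher and 4.83% lower, against 5.45% and 3.14% of others. At 3 to 10 RPM the shares were 5.43% and 2.94%, against 5.65% and 3.13%. At 10 to 30 RPM a larger share was higher (15 of 278, against 3.32%) and a smaller share lower (4, against 1.86%). At 30 RPM or more the shares were 2.94% and 1.47%, against 3.13% and 2.02%. The median difference was 0.09 over the isolated starts and 0.06 over all regions. Positive in 4 of 4 pairs were 269 isolated starts (23.6%, against 20.2% of all tested regions), and negative in 4 of 4 were 104 (9.12%, against 10.8%).

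The direction of the genotype calls depended on the fit. Quantile normalization with the block gave 69 higher and 42 lower in sa37, against 6.86% of all regions called (3.67% higher, 3.18% lower). EdgeR with the block gave 39 higher and 26 lower, against 4.55% of all (2.45% higher, 2.09% lower). EdgeR without it gave 2 higher and 5 lower, against 0.305% of all. Quantile normalization put the median difference at 0.02 over the isolated starts and at -0.01 over all regions. For the counts with a library left out, which cover isolated starts only, those over all regions are not given here. Leaving out any single library left 0 to 4 calls without the block, with 0 without replicate 2 of WT at 16 hpf, and 57 to 88 with it, the lowest without replicate 1 of sa37 at 16 hpf.

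Some isolated starts were present in 1 genotype and listed at 0 throughout in the other. With at least 1 RPM in all 4 sa37 libraries and 0 in all 4 WT libraries there were 5 of the 1140 tested (0.439%), against 26 of 19000 (0.137%). With the reverse pattern there were 7 (0.614%), against 22 (0.116%). All of these regions met the mean of 1 RPM through the genotype where they were present. Their levels and fold bounds there are thus partly set by the filter. Between stages no tested isolated start had at least 1 RPM in all 4 libraries of a stage and 0 in all 4 of the other, against 0.0316% of all regions for presence at 16 hpf and 0.0% for presence at 12 hpf. Lower bounds on the fold between genotypes are given below against the floor averaged over the 4 libraries at 0, which was 3 tags in list 2 and the lowest listed value in list 1.

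Among the starts higher in sa37, the clearest presence was at chr9:25437854-25437920 on the minus strand. It had 9.25 and 5.32 RPM in sa37 at 16 hpf and 5.38 and 4.29 RPM in sa37 at 12 hpf, against 0 RPM in all 4 WT libraries. The level was at least 17.9-fold higher in sa37, and the difference 2.77 ± 0.25 (log2, SE without the block; limma, adjusted p = 0.0111 without and 0.000352 with the block). At chr5:33611896-33611950 on the minus strand, levels were 4.39 and 5.15 RPM in sa37 at 16 hpf and 3.42 and 6.01 RPM in sa37 at 12 hpf, against 0 RPM in all 4 WT libraries. This start was at least 14.0-fold higher in sa37 (2.50 ± 0.24, limma, adjusted p = 0.0118 without and 0.000451 with the block), at both stages alike.

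The other 3 starts with this pattern follow. At chr6:25271755-25272056 on the plus strand, levels were 5.90 and 5.11 RPM in sa37 at 16 hpf and 1.96 and 3.89 RPM in sa37 at 12 hpf, against 0 RPM in every WT library, which made it at least 12.4-fold higher (limma, adjusted p = 0.0161 without and 0.00106 with the block). At chr7:7801740-7802173 on the plus strand, levels were 2.02 and 2.70 RPM in sa37 at 16 hpf and 2.99 and 2.46 RPM in sa37 at 12 hpf, against 0 RPM in every WT library, at least 7.51-fold higher (limma, adjusted p = 0.021 without and 0.000686 with the block). The region on chromosome 7 lay 166282.5 bases from its neighbour and differed in extent between the lists, with 432 bases in list 1 and 2 bases in list 2. The fifth start with this pattern, named after its values were seen, lay at chr6:17788057-17788102 on the plus strand. It had 3.29 and 9.47 RPM in sa37 at 16 hpf and 2.05 and 4.35 RPM in sa37 at 12 hpf, against 0 RPM in every WT library, and was called in the blocked fit only (limma, adjusted p = 0.0524 without and 0.00334 with the block). Its extent also differed, with 7 bases in list 1 and 45 in list 2. The same held for chr5:33611896-33611950, with 5 bases in list 1 and 54 in list 2.

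Other starts higher in sa37 had a trace in WT. At chr14:18001784-18001835 on the plus strand, 244736.5 bases from any other region, levels were 2.83 and 3.03 RPM in sa37 at 16 hpf and 4.10 and 5.67 RPM in sa37 at 12 hpf, against 0 and 0.294 RPM in WT at 16 hpf and 0 and 0.257 RPM in WT at 12 hpf. The genotypes did not overlap, and the difference was 2.08 ± 0.24 (limma, adjusted p = 0.0186 without and 0.000352 with the block). A 6-base region at chr9:14952915-14952921 on the plus strand, 283992.5 bases from its neighbour, averaged 2.76 RPM in sa37 and 0.0213 RPM in WT (limma, adjusted p = 0.0283 without and 0.0012 with the block). At chr20:39060326-39060442 on the minus strand the means were 2.86 RPM in sa37 and 0.0532 RPM in WT (limma, adjusted p = 0.0391 without and 0.000799 with the block). The starts on chromosomes 14, 9 and 20 met the mean of 1 RPM through the sa37 libraries, so the filter partly sets their differences. The start at chr4:70269355-70269415 on the plus strand averaged 5.56 RPM in sa37 and 1.06 RPM in WT, overlapped between the genotypes across replicates, and was called in the blocked fit only (1.61 ± 0.12, limma, adjusted p = 0.699 without and 0.0012 with the block).

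**Figure D5:**
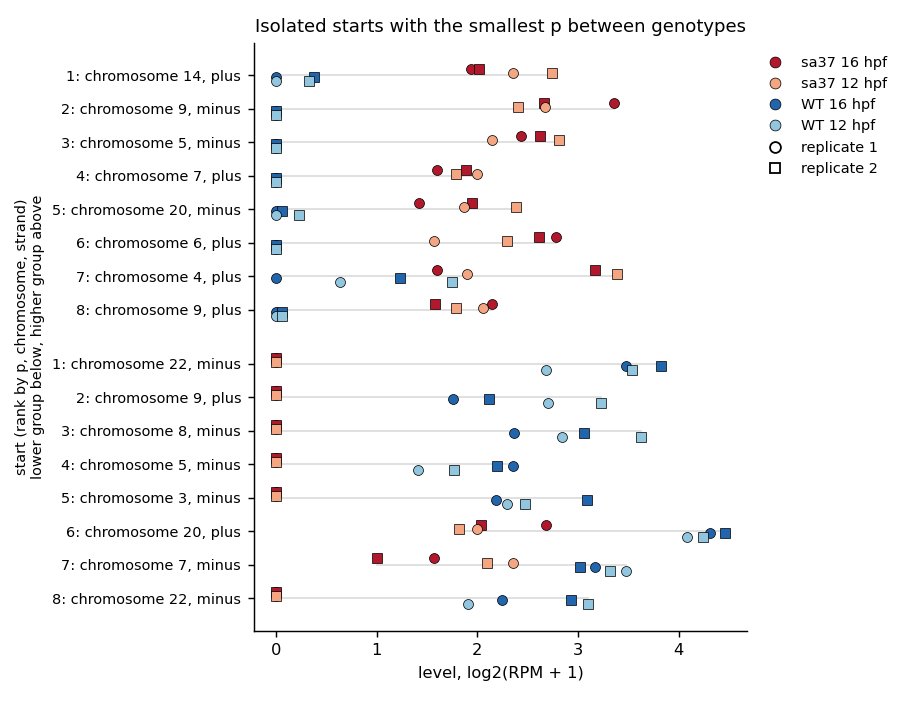
Levels of the 8 isolated starts higher (upper rows) and the 8 lower (lower rows) in sa37 than in WT with the smallest p in the blocked limma fit, on log2(RPM + 1) (x axis), with 1 point per library; red and orange are sa37, dark and light blue WT, circles replicate 1 and squares replicate 2. The genotypes are apart in 7 of the 8 upper rows and in all 8 lower rows, of which 6 have every sa37 library at 0. The starts were picked for a small p, and the share of all regions apart in this way is not given here.

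Starts lower in sa37 were fewer, and 6 of the 8 with the smallest p were at 0 in every sa37 library. At chr22:27759616-27759665 on the minus strand, all 4 sa37 libraries had 0 RPM, against 10.2 and 13.2 RPM in WT at 16 hpf and 5.41 and 10.6 RPM in WT at 12 hpf. It was at least 29.7-fold lower in sa37 and fell by 3.38 (SE 0.27, limma, adjusted p = 0.00669 without and 0.000334 with the block). At chr8:24026831-24026842 on the minus strand, an 11-base region, all 4 sa37 libraries had 0 RPM, against 4.16 and 7.32 RPM in WT at 16 hpf and 6.19 and 11.4 RPM in WT at 12 hpf, at least 21.9-fold lower (limma, adjusted p = 0.0118 without and 0.000484 with the block). Every WT library carried both starts above 3.66 RPM, the median level of all 1428 isolated starts. At each start the lowest WT value was under 5.52 RPM, the median of the tested ones.

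A second start on chromosome 22, chr22:6532672-6532728 on the minus strand, had 0 RPM in the sa37 libraries, against 3.73 and 6.60 RPM in WT at 16 hpf and 2.74 and 7.58 RPM in WT at 12 hpf (at least 15.6-fold lower, limma, adjusted p = 0.0338 without and 0.00206 with the block). At chr9:9374904-9374916 on the plus strand the sa37 libraries had 0 RPM, against 2.39 and 3.32 RPM in WT at 16 hpf and 5.49 and 8.36 RPM in WT at 12 hpf (at least 14.7-fold lower, limma, adjusted p = 0.0118 without and 0.000352 with the block). This region on chromosome 9 spanned 12 bases in list 1 and 2 in list 2. The other 2 were chr3:60197546-60197590 and chr5:4230430-4230437, both on the minus strand, with WT means of 4.88 and 2.93 RPM against 0 RPM in sa37, at least 14.7-fold and at least 8.84-fold lower (limma without the block, adjusted p = 0.0161 and 0.018).

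The last 2 of the 8 kept tags in sa37. At chr20:16740265-16740355 on the plus strand, levels were 5.43 and 3.11 RPM in sa37 at 16 hpf and 2.99 and 2.52 RPM in sa37 at 12 hpf, against 18.8 and 21.0 RPM in WT at 16 hpf and 15.9 and 18 RPM in WT at 12 hpf. The genotypes were far apart at both stages, and the start fell by 2.14 (SE 0.24, limma, adjusted p = 0.0187 without and 0.0012 with the block). At chr7:43376178-43376231 on the minus strand, levels were 1.97 and 0.997 RPM in sa37 at 16 hpf and 4.10 and 3.26 RPM in sa37 at 12 hpf, against 8.01 and 7.11 RPM in WT at 16 hpf and 10.1 and 8.96 RPM in WT at 12 hpf. It fell by 1.49 in the blocked fit only (limma, adjusted p = 0.0672 without and 0.00139 with the block). Of the 14 named starts called between genotypes without the block, edgeR without the block called 6, and a pseudocount of 0.1 ended the call of that on chromosome 14.

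A last comparison set the genotype difference at 16 hpf against that at 12 hpf. No isolated start and no other region was called (0.0% of 19000) by limma or edgeR, with or without the block. At an unadjusted p under 0.05, limma had 4 isolated starts (0.351%) without the block and 61 (5.35%) with it, against 0.242% and 4.59% of all regions. EdgeR had 5 (0.439%) and 32 (2.81%), against 0.405% and 2.93% of all, so the isolated starts were close to the whole. The smallest blocked p was at chr7:59681131-59681146 on the minus strand, which had 0 RPM in all 4 sa37 libraries and 0 and 0.547 RPM in WT at 16 hpf, against 5.41 and 3.38 RPM in WT at 12 hpf. Only WT at 12 hpf was above 1 RPM, and the interaction was 2.09 ± 0.38 (log2, SE with the block; limma, adjusted p = 0.848 with the block).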

How the data were processed

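CAGE libraries of whole zebrafish embryos were analysed, 2 for each combination of genotype and stage, as GEO's labels give them. The authors deposited 1 table per library with tag clusters and their RPM, a unit inferred from the column sums. The submitters' processing notes name BWA, HISAT2 and danRer10, without roles or versions, and the clustering method is not given in the sources used here. Repeated rows (412 per file of list 1, 796 per file of list 2) were dropped. Same-strand clusters sharing 1 base or more were joined, with ends read as exclusive, and a library's RPM were added per region. Values were whole multiples of 1 tag within the rounding of the files (2 decimals in list 1, 3 in list 2) for 100% of values, which gave the tags.

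The main test was limma 3.58.1 in R 4.3.3 on log2(RPM + 1), with 4 group means and all 8 libraries, over the 19000 both-list regions that averaged 1 RPM or more, with two-sided p-values and Benjamini-Hochberg adjustment over all of them; a call is an adjusted p under 0.05. This scale understates the change of low regions. A region could pass the mean of 1 RPM through the group where it was high. The replicate block was a second fit, used since the replicate differences of all pairs of groups correlated (r of 0.68 to 0.83). Titles of replicate 2 end in a number, the others carry none, and no pairing is stated. As replicate number and list cannot be told apart, this r does not show that samples were paired. Other alternatives were a pseudocount of 0.1, no filter, quantile normalization, edgeR 4.0.16 (quasi-likelihood, TMM) on the recovered tags, other distances and ways to merge, and each library left out. Settings that add the block to the pseudocount, filter or left-out libraries, and the classes of distance, level and length, were chosen after seeing the data. The fits were also run on simulated data with planted genotype changes, whose outcome is not given here. That simulation used 1 fixed spread and left out the gap above 0 in list 1, so it cannot check calls at low levels. The members and lists were chosen with earlier results of these data known. A permutation test planned for the RPM share was not used, as that value sums over the members.

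Named starts are the 6 with the highest mean, the 4 farthest, 2 on either side of the threshold, up to 8 per direction and comparison with the smallest p in the blocked limma fit among called starts, and the smallest interaction p. Coordinates are those of the files. No genome or annotation of danRer10 was used, so sequences, gene names and jam3b itself were not analysed here.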

Additional observations from a re-analysis of the deposited data

Results flagged for a closer look

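Some isolated starts had genotype differences of opposite direction at the 2 stages. At chr8:6989444-6989533 on the plus strand, sa37 was below WT at 16 hpf (0.640 and 3.57 RPM in sa37, against 1.04 and 3.83 RPM in WT) and above WT at 12 hpf (3.67 and 10.6 RPM in sa37, against 1.33 and 5.57 RPM in WT) in both replicates. The interaction was -1.11 on the log2 scale (limma, adjusted p = 0.854 with the block). At chr23:6652471-6652696 on the plus strand, sa37 was above WT at 16 hpf (41.2 and 61.9 RPM in sa37, against 38.3 and 47.3 RPM in WT) and below it at 12 hpf (72.4 and 94.0 RPM in sa37, against 87.4 and 101 RPM in WT). The interaction there was 0.43 (limma, adjusted p = 0.985 with the block). Neither interaction passed the threshold.

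Isolated regions of a single list entered no comparison. Of the 232 in list 1 alone, 3 had at least 5 RPM at both stages in a genotype and less than 0.5 RPM at both stages in the other, with 1 library per group and no replicate check. None of the 566 in list 2 alone did (0 regions). The same count over all single-list regions is not given here. The region at chr14:21933658-21933897 had 6.94 RPM in sa37 at 16 hpf and 5.13 RPM in sa37 at 12 hpf, against 0 RPM in WT. At chr4:55668819-55668850 sa37 was at 0 RPM, against 12.2 RPM in WT at 16 hpf and 8.78 RPM at 12 hpf, and at chr16:3994497-3994510 sa37 was at 0 RPM, against 5.57 and 5.65 RPM in WT. All 3 are on the plus strand.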

How the results depend on the processing

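The number of isolated starts was 3154 with a distance of 25000 bases, 452 with 100000 bases and 2779 when only both-list regions counted as neighbours. Stage calls numbered 38 without and 461 with the replicate block. They were 24 with a pseudocount of 0.1 (319 with the block), 526 with no filter and the block, 396 after quantile normalization with the block and 289 by edgeR with the block. At 25000 bases they were 75 (952 with the block), and at 100000 bases 13 (149 with the block). Leaving out each library gave 1 to 6 without the block and 265 to 405 with it. Among all 19000 tested regions, a pseudocount of 0.1 gave 221 stage calls, and 3572 with the block. No filter with the block gave 5360 of 23602. The shares over all regions for the block, quantile normalization and edgeR are given above. Counts over all regions with a library left out, and the number tested at other distances, are not given here. Genotype calls numbered 17 without and 118 with the block, and 7 by edgeR without it. With the block they were 46 with a pseudocount of 0.1, 142 with no filter, 111 after quantile normalization and 65 by edgeR. At 25000 bases the block gave 242, and at 100000 bases the counts were 7 without and 38 with it. Leaving out each library gave 0 to 4 and, with the block, 57 to 88. Among all 19000 tested regions, a pseudocount of 0.1 with the block gave 475 genotype calls. No filter with the block gave 1480 of 23602. Interaction calls were 0 in every setting run. The stage difference in RPM share was 0.367 points at 25000 bases, 0.0629 at 100000 and 0.399 with both-list neighbours, and 0.166 to 0.195 with each library left out. The genotype difference in share was 0.223, 0.0225 and 0.169 points in those settings, and 0.0712 to 0.0873 with each library left out. All 16 named stage starts and all 16 named genotype starts were called in the blocked fit with each library left out. They were picked for the smallest p in that fit, so this is not an independent check. Without the block, 9 and 14 were called with all libraries, and 1 and 0 with each library left out. No named value reversed direction. For none of these changes was the cause tested. In list 1 a start under about 0.5 RPM cannot be seen, so absence there is less certain than in list 2.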
